A study of Mus musculus with 10 samples.

Results

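Genes for axon guidance ligands and their receptors were followed across 5 cell populations of the mouse hair follicle and its dermis. Members were all genes whose symbol in the array's annotation begins as semaphorins (Sema with a digit), plexins (Plxn), neuropilins (Nrp1, Nrp2), Eph receptors (Epha, Ephb), ephrins (Efna, Efnb), Slits, Robos, netrins (Ntn with a digit) or Unc5 netrin receptors do, and 57 of the 12393 genes named on the array met this rule, with 98 probe-sets. The rule reads symbols and no measured value, although the families themselves were picked with earlier results of these data known. They were 31 ligands, 25 receptors and Unc50, which shares the letters of the Unc5 receptors but is no netrin receptor.

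Each population was sorted from postnatal day 4 (P4) mouse backskin and measured on 2 Affymetrix MOE430A arrays, which the methods describe as entirely independent datasets. All mice carried 2 transgenes, a green nuclear histone reporter under the keratin 14 promoter (K14-H2BGFP), active in epithelial cells, and a red reporter under the human Lef1 promoter (Lef1-RFP). Matrix cells (Mx), the proliferating epithelium of the hair bulb, were taken as GFP-low and RFP-negative, and outer root sheath cells (ORS), the outer epithelial layer, as GFP-high and RFP-negative. Dermal papilla cells (DP), the mesenchyme at the base of the follicle, were RFP-high and GFP-negative, and the dermal fraction enriched in fibroblasts (DF) carried neither reporter. DP and DF were both taken from cells depleted of those with CD117, CD45 or CD34 on their surface. Melanocytes (Mc) were RFP-high and CD117-positive. A population is therefore a reporter and antibody gate on pooled skins, and the DF gate in particular is defined by what the cells lack.

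In the nervous system these families steer growing axons by attraction or repulsion. Secreted class 3 semaphorins bind neuropilins, which signal with plexins, while most other semaphorins bind plexins directly; Slits repel through Robo receptors; netrin-1 attracts through Dcc and repels through Unc5 receptors; and membrane-bound ephrins signal to Eph receptors on touching cells, with a reverse signal into the ephrin-bearing cell. The same molecules act outside the nervous system on vessel growth, cell sorting and the boundaries of epithelia, and skin is one of the tissues in which many of them are found.

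The unit throughout is the deposited MAS 5.0 signal, a linear intensity, of the gene's brightest probe-set. A member was tested where both arrays of any population gave 200 or more, with limma on log2(signal + 50) over all 8054 probe-sets that passed, so that folds are on that scale, on which low genes change less than their signals do. Levels were never compared between genes, since probe-sets differ in brightness. Of the 57 members 27 were tested, 12 ligands, 14 receptors and Unc50, and 30 did not reach the bound. A signal near or below 50 lies where the added 50 dominates, and no present or absent calls were used here.

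Mx, ORS, DP and Mc carried the markers of their labels, and DF did so less clearly. Of the tested markers, 8 of 8 for hair matrix, 7 of 9 for basal keratinocytes, 9 of 9 for dermal papilla and 6 of 9 for melanocytes were at least 2-fold higher in the labelled population than in each of the other 4, each of those 4 differences having an adjusted p under 0.05, a rule called a tested signature below. For fibroblasts this was so of 2 of 8 in DF, where their summed signal was 35027 and 32219 against 22066 and 22711 in DP. Of these markers 5 were highest in DF. Dcn was in the Mx signature, at 4725 and 3052 in Mx against 1326 and 1914 in DF. Pdgfra was in the DP signature, and Lum was highest in DP. DF also held markers of other cells. The 12 endothelial markers were all highest in DF, with a summed signal of 6178 and 5225 there against 303 to 624 on the other 8 arrays, although the sort depleted CD34-bearing cells, and 7 of 9 pericyte and smooth muscle markers were highest in DF, at 22542 and 27903 against 437 to 7470.0. The 1 tested red cell marker, Alas2, was in the DF signature at 3462 and 4266, while Hba-a1, a haemoglobin gene, ran from 12.7 to 47.2 over the 10 arrays. Of the 7 Schwann and glial markers on the array 4 were highest in DP, 2 in DF and 1 in ORS, with a summed signal of 5334 and 4123 in DF against 487 to 2777 on the other arrays; Mbp and Pmp22 were in the DF signature, S100b in that of DP and Egr2 in that of ORS. No immune or muscle marker reached 200. Summed melanocyte markers read 34079 and 36391 in Mc, but also 25595 and 15823 in DP and 13326 and 4226 in DF, against 520 to 961 in the epithelial arrays. Hair matrix markers summed to 1527 in DF replicate 1 and 6318 in DF replicate 2. The median signal ran from 49.9 to 90.9 over the 10 arrays. In sorted bulk RNA, fewer cells of a type and less RNA per cell cannot be told apart.

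Most members differed among the populations. With no bound on the signal, 45 of all 57 had an F-test adjusted p under 0.05 (limma, Benjamini-Hochberg), where 45.8% of all 12393 genes did, and the median range between the highest and the lowest population mean was 1.46 on the log2 scale for members against 0.64 for all genes. Among tested members the F-test called 26 of 27, against a background of 70.2% of the 5253 genes tested. Passing the bound through the population where a gene is high favours a difference, so the latter count is only a description. The gene not called was Unc50, whose signals lay between 251 and 353 on all 10 arrays. Among the tested members the lowest population was Mc for 14, Mx for 7, ORS for 4, DF for 1 and DP for 1, while the highest was spread over Mx (6), ORS (7), DF (5), DP (4) and Mc (5). No such counts were made over all genes, so they are only descriptions of the members.

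**Figure D1:**
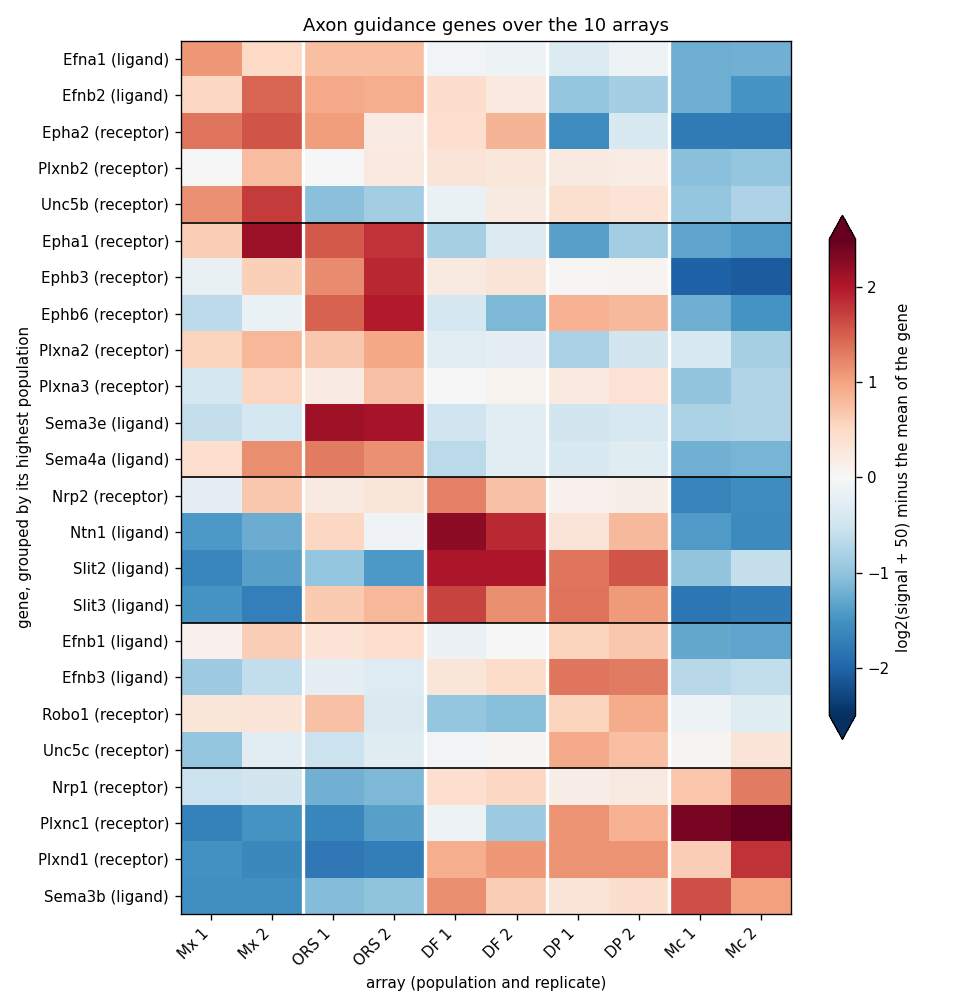
Colour gives log2(signal + 50) on each of the 10 arrays (columns) minus the mean of that gene over the arrays, for the 24 members (rows) whose F-test passed and whose population means spanned at least 2-fold, grouped by their highest population. Sema3e stands out in both ORS arrays, Ntn1 and Slit2 in both DF arrays, and Plxnc1 in both Mc arrays.

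Single members marked single populations. The tested signatures held Unc5b in Mx, Sema3e and Ephb3 in ORS, Ntn1 in DF and Plxnc1 in Mc, and no tested member in DP. Over all genes tested, 1.31% were in the signature of Mx, 1.87% in that of ORS, 3.64% in that of DF, 2.63% in that of DP and 2.65% in that of Mc, and counts of 0 to 2 among 27 tested members are too small to set against these shares. With no bound on the signal Epha7 was added in DP, and 6 of 57 members were in a signature against 5.78% of all genes.

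Of the 5 tested members in a signature 4 had an entry in the table of RefSeq promoters (GRCm38.p6). The 250 bases before their start are shown because their transcript set one population apart. Each runs 5′ to 3′ towards the gene in lower case, with capitals for the GC box (GGGCGG or its reverse complement CCGCCC) and for the E box CATGTG (or CACATG).

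Unc5b, chr10:60831582-60831831, minus strand: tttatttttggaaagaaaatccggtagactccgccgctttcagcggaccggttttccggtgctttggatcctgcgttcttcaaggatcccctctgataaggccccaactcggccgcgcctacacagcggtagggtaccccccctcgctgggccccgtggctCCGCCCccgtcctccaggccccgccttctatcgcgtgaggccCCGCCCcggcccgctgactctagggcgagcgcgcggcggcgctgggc

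Sema3e, chr5:14025026-14025275, plus strand: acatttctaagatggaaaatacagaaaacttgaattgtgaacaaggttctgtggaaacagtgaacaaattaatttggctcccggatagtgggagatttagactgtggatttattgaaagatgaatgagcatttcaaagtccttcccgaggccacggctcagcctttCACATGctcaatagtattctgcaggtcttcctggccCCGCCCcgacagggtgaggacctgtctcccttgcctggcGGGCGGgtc

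Ephb3, chr16:21204545-21204794, plus strand: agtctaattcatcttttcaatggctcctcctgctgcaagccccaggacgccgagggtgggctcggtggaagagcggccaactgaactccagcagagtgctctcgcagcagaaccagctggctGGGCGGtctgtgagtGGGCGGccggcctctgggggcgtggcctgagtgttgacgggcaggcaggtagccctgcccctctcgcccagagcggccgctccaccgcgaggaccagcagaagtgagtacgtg

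Plxnc1, chr10:94944846-94945095, minus strand: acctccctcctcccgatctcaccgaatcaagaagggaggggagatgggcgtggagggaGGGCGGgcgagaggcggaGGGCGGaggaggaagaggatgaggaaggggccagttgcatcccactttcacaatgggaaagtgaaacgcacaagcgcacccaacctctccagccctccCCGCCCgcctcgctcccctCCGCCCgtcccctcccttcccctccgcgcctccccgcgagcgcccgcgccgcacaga

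The GC box occurred 2 times before Unc5b, 2 times before Sema3e, 2 times before Ephb3 and 4 times before Plxnc1, and 32.7% of all 32851 promoters of the same length hold it on either strand. The E box CATGTG occurred before Sema3e only, 1 time, and 12.3% of all promoters hold it. G and C made up 66.8% of the bases before Unc5b, 48.0% before Sema3e, 65.6% before Ephb3 and 68.8% before Plxnc1, against a median of 52.4% over all promoters. Sema3e thus had the lowest share of the 4 and lay below the median of all. These are descriptions of the letters, not sites of binding.

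Among the semaphorins, 5 of 17 were tested and all 5 passed the F-test, where 70.2% of all genes tested did. With no bound 12 of 17 did, where 45.8% of all genes did. Sema3e, a secreted semaphorin that binds Plxnd1 without a neuropilin, reached 200 in ORS only. Its signal (probe-set 1419717_at) was 11 and 17.9 in Mx, 349.8 and 331 in ORS, 15.1 and 26.1 in DF, 17.1 and 19.2 in DP and 2.9 and 4.8 in Mc. Both ORS arrays were far above the other 8, which were all at or under 26.1. ORS exceeded DF, the next population, 5.54-fold (log2 difference 2.47 ± 0.17, SE, adjusted p = 2.48e-07), and Mx, its epithelial neighbour, 6.06-fold (log2 difference 2.60 ± 0.17, SE, adjusted p = 9.97e-07).

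Sema3b, another secreted class 3 semaphorin that acts through neuropilins, was a gene of the mesenchyme and Mc. It read 1.2 and 1.1 in Mx, 19.8 and 24.5 in ORS, 284 and 178 in DF, 136 and 151 in DP and 405 and 252 in Mc (probe-set 1448415_a_at). No epithelial array came near any mesenchymal or Mc array, and the DF and Mc arrays overlapped. Mc exceeded Mx 7.24-fold (log2 difference 2.86 ± 0.23, SE, adjusted p = 1.06e-06), and the difference between Mc and DF had an adjusted p of 0.182.

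Sema4a, a membrane-bound semaphorin, ran the other way. Its signal was 126 and 246 in Mx, 275 and 240.4 in ORS, 32.3 and 57.9 in DF, 50.9 and 56.4 in DP and 7.7 and 8.9 in Mc, from a probe-set (1438934_x_at) whose x suffix marks probes that also match other transcripts. Both epithelial populations lay above the other 3, and one Mx array lay within the ORS range. ORS exceeded Mc 5.27-fold (log2 difference 2.40 ± 0.24, SE, adjusted p = 4.15e-06), and the difference between ORS and Mx had an adjusted p of 0.24. Its other probe-set, which did not reach the bound, was also highest in ORS and lowest in Mc.

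Sema4d and Sema6c passed the F-test with spans under 2-fold, and both calls were lost with the chip lot as a block (adjusted p = 0.11 for Sema4d and 0.0627 for Sema6c). Sema4d, a membrane-bound ligand of B-class plexins, read 272 and 398 in Mx, 162 and 163 in ORS, 246 and 207 in DF, 221 and 212 in DP and 254 and 159 in Mc, and was 1.79-fold higher in Mx than in ORS (adjusted p = 0.0181). Its F-test adjusted p was 0.0451, and went to 0.0839 with no bound on the signal and to between 0.0585 and 0.197 without Mx replicate 2 or any one of the ORS, DF or DP arrays. For Mx over ORS the p was 0.0531 with no bound, 0.0751 without Mx replicate 2, 0.077 without ORS replicate 1 and 0.0868 without ORS replicate 2. Sema6c, a membrane-bound ligand of A-class plexins, read 102 and 136 in Mx, 126 and 137 in ORS, 223 and 207 in DF, 171 and 219.8 in DP and 128 and 169 in Mc, somewhat higher in the mesenchyme. Its F-test adjusted p was 0.0346, and rose to between 0.0549 and 0.107 without Mx replicate 1, either ORS replicate, either DF replicate or DP replicate 2.

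Both tested Slits, secreted ligands of Robo receptors, were high in the mesenchyme, and Slit3 had signal in ORS as well. Slit2 had a signal of 11.1 and 23.0 in Mx, 46.9 and 19.8 in ORS, 717 and 715 in DF, 428 and 506 in DP and 44.7 and 74.9 in Mc (probe-set 1424659_at). Both mesenchymal populations were clear of the other 3, where no array exceeded 74.9. DF exceeded Mx 11.5-fold (log2 difference 3.52 ± 0.22, SE, adjusted p = 5.51e-08) and DP exceeded Mx 7.73-fold (log2 difference 2.95 ± 0.22, SE, adjusted p = 2.60e-07), while the difference between DF and DP had an adjusted p of 0.0901.

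Slit3 read 18.9 and 8.0 in Mx, 248 and 287 in ORS, 564 and 376 in DF, 435 and 349 in DP and 4.7 and 6.4 in Mc (probe-set 1452296_at). Here ORS joined the mesenchyme, and Mx and Mc were at the bottom with no array above 18.9. DF exceeded Mc 9.2-fold (log2 difference 3.20 ± 0.21, SE, adjusted p = 1.23e-07), and ORS exceeded Mx 5.01-fold (log2 difference 2.33 ± 0.21, SE, adjusted p = 8.16e-06). Slit1, the third Slit, stayed under 100 on every array.

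Ntn1, which encodes netrin-1, a secreted ligand of Dcc and Unc5 receptors, was the one member in the DF signature. Its signal was 26.2 and 36.7 in Mx, 245 and 143 in ORS, 915 and 702 in DF, 206 and 308 in DP and 26.9 and 18.4 in Mc (probe-set 1454974_at). Both DF arrays lay above all others, DP and ORS overlapped in the middle, and Mx and Mc were lowest. DF exceeded DP 2.81-fold (log2 difference 1.49 ± 0.24, SE, adjusted p = 7.30e-04) and Mc 11.8-fold (log2 difference 3.55 ± 0.24, SE, adjusted p = 1.58e-07), and ORS exceeded Mx 2.94-fold (log2 difference 1.55 ± 0.24, SE, adjusted p = 5.08e-04). A second Ntn1 probe-set stayed at or under 35.4 on every array. Endothelial and pericyte markers were also highest in DF, at the summed signals given above. Values of every member in DF are therefore those of the whole gate. Among them are Ntn1, Slit2, Slit3, Nrp1, Nrp2, Plxnd1, Efnb2 and Epha2. The part of endothelial cells and pericytes in these values was not tested.

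The tested ephrins did not share one pattern. Efna1, an ephrin held to the membrane by a lipid anchor, read 271 and 166 in Mx, 205 and 207 in ORS, 95.1 and 89.1 in DF, 71.0 and 89.5 in DP and 15.4 and 16.5 in Mc (probe-set 1416895_at). Its Mx and ORS arrays were all above those of DF and DP, and Mc was lowest. Mx exceeded Mc 3.99-fold (log2 difference 2.00 ± 0.20, SE, adjusted p = 6.56e-06), and its difference from ORS had an adjusted p of 0.929.

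Efnb2, a transmembrane ephrin, had a signal of 388 and 787 in Mx, 546 and 529.5 in ORS, 365 and 316 in DF, 106 and 120.4 in DP and 82.4 and 60.8 in Mc (probe-set 1419639_at). The Mx replicates lay on either side of the ORS arrays, DF followed just below, and DP and Mc were low. Mx exceeded Mc 5-fold (log2 difference 2.32 ± 0.26, SE, adjusted p = 1.26e-05). Between the 2 dermal gates DF exceeded DP 2.38-fold (log2 difference 1.25 ± 0.26, SE, adjusted p = 0.00397). A second tested probe-set of Efnb2, also highest in Mx and lowest in Mc, read 154.6 and 259.9 in DF and 342.4 and 71.7 in DP, so that the 2 populations overlapped. The mean of all probe-sets of the gene, which brings in dim ones, did not reach the bound, so DF over DP was not tested with it.

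Efnb3 was the opposite case within the dermis. It read 18.5 and 33.3 in Mx, 58.5 and 51.9 in ORS, 107 and 126 in DF, 272 and 265 in DP and 28.7 and 34.0 in Mc (probe-set 1423085_at). Both DP arrays lay above all others, with DF in between and the remaining populations low. DP exceeded DF 1.92-fold (log2 difference 0.94 ± 0.18, SE, adjusted p = 0.00229) and Mx 4.22-fold (log2 difference 2.08 ± 0.18, SE, adjusted p = 1.04e-06). That DP over DF fold was under 2, which kept Efnb3 out of the DP signature.

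Efnb1 was broadly present outside Mc. Its signal was 396 and 585 in Mx, 475 and 501 in ORS, 324 and 360.3 in DF, 552 and 611 in DP and 119 and 116 in Mc (probe-set 1418286_a_at), with the Mx arrays spread over the values of ORS and DP. DP exceeded Mc 3.76-fold (log2 difference 1.91 ± 0.20, SE, adjusted p = 8.46e-06), and DF 1.61-fold (log2 difference 0.69 ± 0.20, SE, adjusted p = 0.027). The latter call was lost on leaving out DF replicate 1, DF replicate 2, DP replicate 1 or DP replicate 2, with adjusted p values of 0.148, 0.0733, 0.0868 and 0.159. Of its other probe-sets one was highest in DP and one in ORS.

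**Figure D2:**
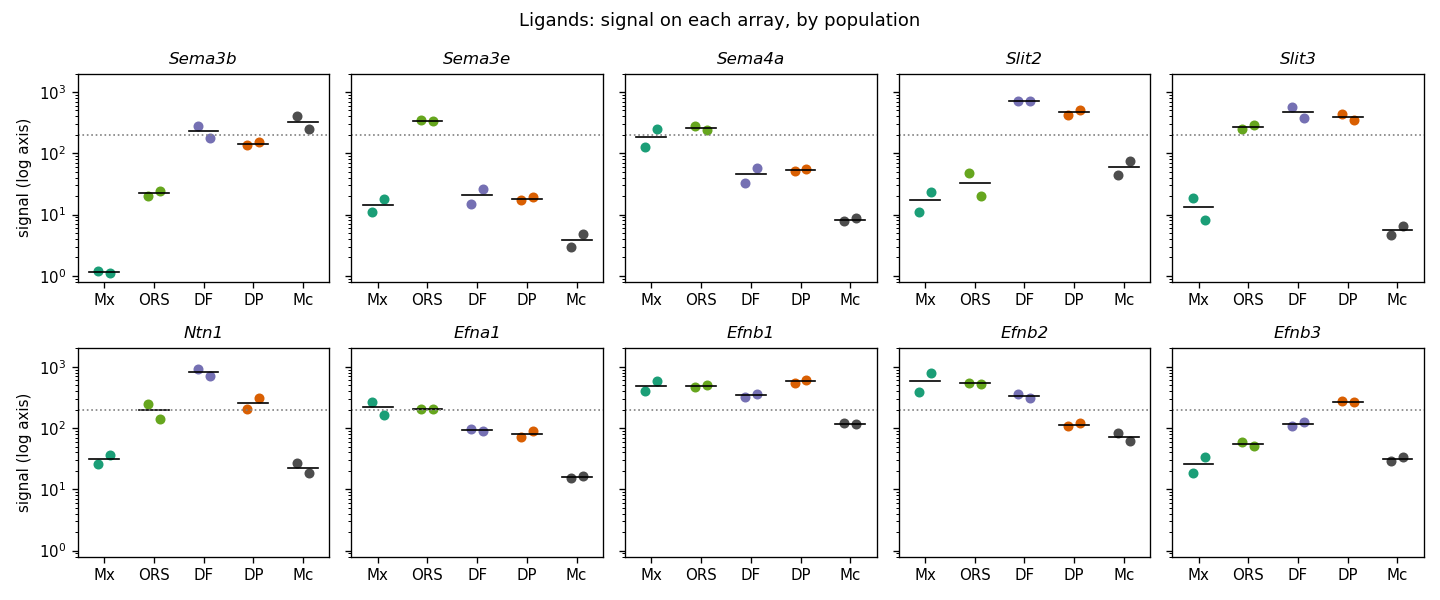
Each panel shows the signal (log axis) of one described ligand by population, with replicate 1 on the left and replicate 2 on the right; the bar is the mean of both and the dotted line the bound of 200. The 10 ligands include Sema3e, above 300 in ORS only, and Slit2, above 400 in DF and DP only.

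Of the 25 receptors 14 were tested, and all of them passed the F-test (background 70.2%) and spanned at least 2-fold. Plxnc1, the plexin for Sema7a, had the widest span of all members. It read 4.6 and 12.1 in Mx, 6.8 and 18.5 in ORS, 111 and 43.6 in DF, 335 and 271 in DP and 861 and 1225 in Mc (probe-set 1423213_at). Mc was highest on both arrays, DP second, and the 4 epithelial arrays were at or under 18.5. Mc exceeded Mx 18.5-fold (log2 difference 4.21 ± 0.26, SE, adjusted p = 1.61e-07) and DP 3.06-fold (log2 difference 1.62 ± 0.26, SE, adjusted p = 3.94e-04), and DP exceeded DF 2.86-fold (log2 difference 1.52 ± 0.26, SE, adjusted p = 0.00111). Its other 3 probe-sets were also highest in Mc and lowest in Mx. Over the DP and DF arrays Plxnc1 had the order of the summed melanocyte markers, with 335 where that sum was 25595, 271 at 15823, 111 at 13326 and 43.6 at 4226; the part of melanocyte RNA in the DP and DF values was not tested.

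Plxnd1, the receptor of Sema3e, was low throughout the epithelium. Its signal was 22.5 and 17.6 in Mx, 10.1 and 12.3 in ORS, 342 and 393 in DF, 401 and 400.1 in DP and 270.2 and 672 in Mc (probe-set 1451475_at). All 6 mesenchymal and Mc arrays were above 200 and all 4 epithelial arrays below 30, and the 2 Mc arrays spanned the DF and DP values. Mc exceeded ORS 7.86-fold (log2 difference 2.97 ± 0.29, SE, adjusted p = 3.41e-06) and DP exceeded ORS 7.36-fold (log2 difference 2.88 ± 0.29, SE, adjusted p = 5.15e-06).

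The A-class plexins, which signal with neuropilins, leaned to the epithelium or to no layer. Plxna2 read 218 and 275 in Mx, 244 and 305 in ORS, 101 and 105 in DF, 54.0 and 82.8 in DP and 88.7 and 52.7 in Mc, so that all epithelial arrays were above 200 and all others at or under 105. ORS exceeded DP 2.75-fold (log2 difference 1.46 ± 0.21, SE, adjusted p = 1.36e-04). Plxna3 read 138 and 322 in Mx, 244 and 372 in ORS, 208 and 220.5 in DF, 252 and 279.5 in DP and 78.7 and 102 in Mc, with only Mc set apart. ORS exceeded Mc 2.52-fold (log2 difference 1.33 ± 0.28, SE, adjusted p = 0.00217), and without Mc replicate 1 its F-test adjusted p went from 0.00801 to 0.0813.

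Plxnb2, a receptor of class 4 semaphorins, was above 200 on every array and lowest in Mc. It read 561 and 998 in Mx, 559 and 677 in ORS, 723 and 698 in DF, 664 and 649 in DP and 247 and 266 in Mc. Mx exceeded Mc 2.61-fold (log2 difference 1.38 ± 0.23, SE, adjusted p = 3.52e-04), and the Mx replicates enclosed all DF and DP arrays.

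The neuropilins, which bind class 3 semaphorins and also vascular endothelial growth factor, had different patterns. Nrp1 read 135 and 146 in Mx, 67.4 and 73.3 in ORS, 310.4 and 336 in DF, 255 and 266 in DP and 385 and 618 in Mc (probe-set 1448943_at). Every mesenchymal and Mc array was above every epithelial array, and ORS was lowest. Mc exceeded ORS 4.48-fold (log2 difference 2.16 ± 0.21, SE, adjusted p = 3.07e-06), its difference from DF had an adjusted p of 0.0645, and a second tested probe-set of Nrp1 was highest in DF. Mx exceeded ORS 1.58-fold (log2 difference 0.66 ± 0.21, SE, adjusted p = 0.0406). That adjusted p was 0.0745 with no bound on the signal, 0.0803 at a pseudocount of 100 and 0.158 with the mean of all probe-sets. The call was also lost on leaving out any one of the Mx, ORS, DF or DP arrays, with folds from 1.54 to 1.63.

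Nrp2 had a signal of 249 and 506 in Mx, 356 and 381 in ORS, 785 and 533 in DF, 324 and 338 in DP and 60.1 and 68.8 in Mc (probe-set 1426528_at). Mc was lowest by a wide margin and DF highest, with the Mx replicates enclosing the ORS and DP arrays. DF exceeded Mc 6.1-fold (log2 difference 2.61 ± 0.27, SE, adjusted p = 4.92e-06). DF exceeded DP 1.83-fold (log2 difference 0.87 ± 0.27, SE, adjusted p = 0.0355), and with no bound on the signal that p was 0.107. The call was also lost without either ORS replicate, DF replicate 1 or either DP replicate. The fold was 1.53 without DF replicate 1.

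Robo1, the one tested receptor of Slits, was lowest in DF and highest in DP. Slit2, whose mean was highest in DF, did not set DF apart from DP (adjusted p = 0.0901). Robo1 read 272 and 278 in Mx, 386 and 154 in ORS, 84.6 and 76.6 in DF, 334 and 448 in DP and 190.5 and 164 in Mc (probe-set 1427231_at). The DF arrays lay below all others, DP was highest, and the ORS replicates spanned 154 to 386. DP exceeded DF 3.35-fold (log2 difference 1.75 ± 0.29, SE, adjusted p = 7.85e-04), and Mx exceeded DF 2.49-fold (log2 difference 1.32 ± 0.29, SE, adjusted p = 0.00209).

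Unc5b and Unc5c, receptors through which netrin-1 repels, were highest in different populations. Unc5b read 654 and 1014 in Mx, 103 and 124 in ORS, 232 and 321 in DF, 368 and 352 in DP and 112 and 135 in Mc (probe-set 1435110_at). Both Mx arrays were above all others, and ORS, the neighbouring epithelium, was lowest together with Mc. Mx exceeded ORS 5.3-fold (log2 difference 2.41 ± 0.22, SE, adjusted p = 8.90e-06) and DP 2.11-fold (log2 difference 1.08 ± 0.22, SE, adjusted p = 0.00138). The latter lies close to the 2-fold limit of the signature and was 1.72-fold without Mx replicate 2.

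Unc5c read 30.5 and 80.3 in Mx, 58.9 and 77.8 in ORS, 100 and 114 in DF, 252 and 216 in DP and 114 and 147 in Mc (probe-set 1449522_at), highest on both DP arrays. DP exceeded Mx 2.77-fold (log2 difference 1.47 ± 0.23, SE, adjusted p = 1.72e-04) and DF 1.81-fold (log2 difference 0.85 ± 0.23, SE, adjusted p = 0.02). With no bound on the signal the adjusted p for DP over DF was 0.0558. Without DF replicate 1, DF replicate 2, DP replicate 1 or DP replicate 2 the adjusted p for DP over DF was 0.111, 0.0655, 0.136 and 0.058.

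The 4 tested Eph receptors were each highest in an epithelial population, with different patterns in the dermis. Epha1 read 168 and 586 in Mx, 359 and 449.7 in ORS, 29.4 and 62.8 in DF, 5.8 and 27.9 in DP and 6.9 and 3.3 in Mc (probe-set 1422917_at). All epithelial arrays exceeded all others, though the Mx replicates differed widely from each other. ORS exceeded Mc 8.21-fold (log2 difference 3.04 ± 0.38, SE, adjusted p = 3.15e-05), and the difference between ORS and Mx had an adjusted p of 0.669.

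Epha2, a receptor of Efna1 known from epithelial cells, had a signal of 438 and 522 in Mx, 344 and 172 in ORS, 206 and 294 in DF, 15.8 and 97.0 in DP and 7.3 and 6.6 in Mc (probe-set 1421151_a_at). Mx was highest, DF and ORS overlapped, and DP and Mc were low. Mx exceeded Mc 9.28-fold (log2 difference 3.21 ± 0.34, SE, adjusted p = 8.94e-06). DF exceeded DP 3.02-fold (log2 difference 1.59 ± 0.34, SE, adjusted p = 0.00514), and without DF replicate 2 or DP replicate 1 this had an adjusted p of 0.0578 or 0.0706.

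Ephb3, a receptor of B-class ephrins, read 159 and 308 in Mx, 494 and 826 in ORS, 228 and 249 in DF, 192 and 199 in DP and 8.9 and 6.1 in Mc (probe-set 1451550_at). Both ORS arrays were above all others, DF, DP and Mx lay together, and Mc was near the bottom of the scale. ORS exceeded Mc 12-fold (log2 difference 3.59 ± 0.27, SE, adjusted p = 3.68e-07) and DF 2.39-fold (log2 difference 1.26 ± 0.27, SE, adjusted p = 0.00258). The smallest of its 4 folds was 1.93 without Mx replicate 1 and 1.88 without ORS replicate 2, under the limit of the signature in both, and without ORS replicate 2 the adjusted p for ORS over Mx was 0.0512.

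Ephb6, a family member whose kinase domain is inactive, had a split pattern with ORS and DP high. Its signal was 50.1 and 90.3 in Mx, 389.7 and 575 in ORS, 66.4 and 22.6 in DF, 238 and 227 in DP and 17.5 and 6.2 in Mc (probe-set 1418051_at). The ORS arrays lay above the DP arrays, which in turn lay above Mx and DF. ORS exceeded Mc 8.51-fold (log2 difference 3.09 ± 0.26, SE, adjusted p = 1.04e-06), ORS exceeded Mx 4.42-fold (log2 difference 2.15 ± 0.26, SE, adjusted p = 7.54e-05) and DP exceeded DF 3.07-fold (log2 difference 1.62 ± 0.26, SE, adjusted p = 6.80e-04).

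**Figure D3:**
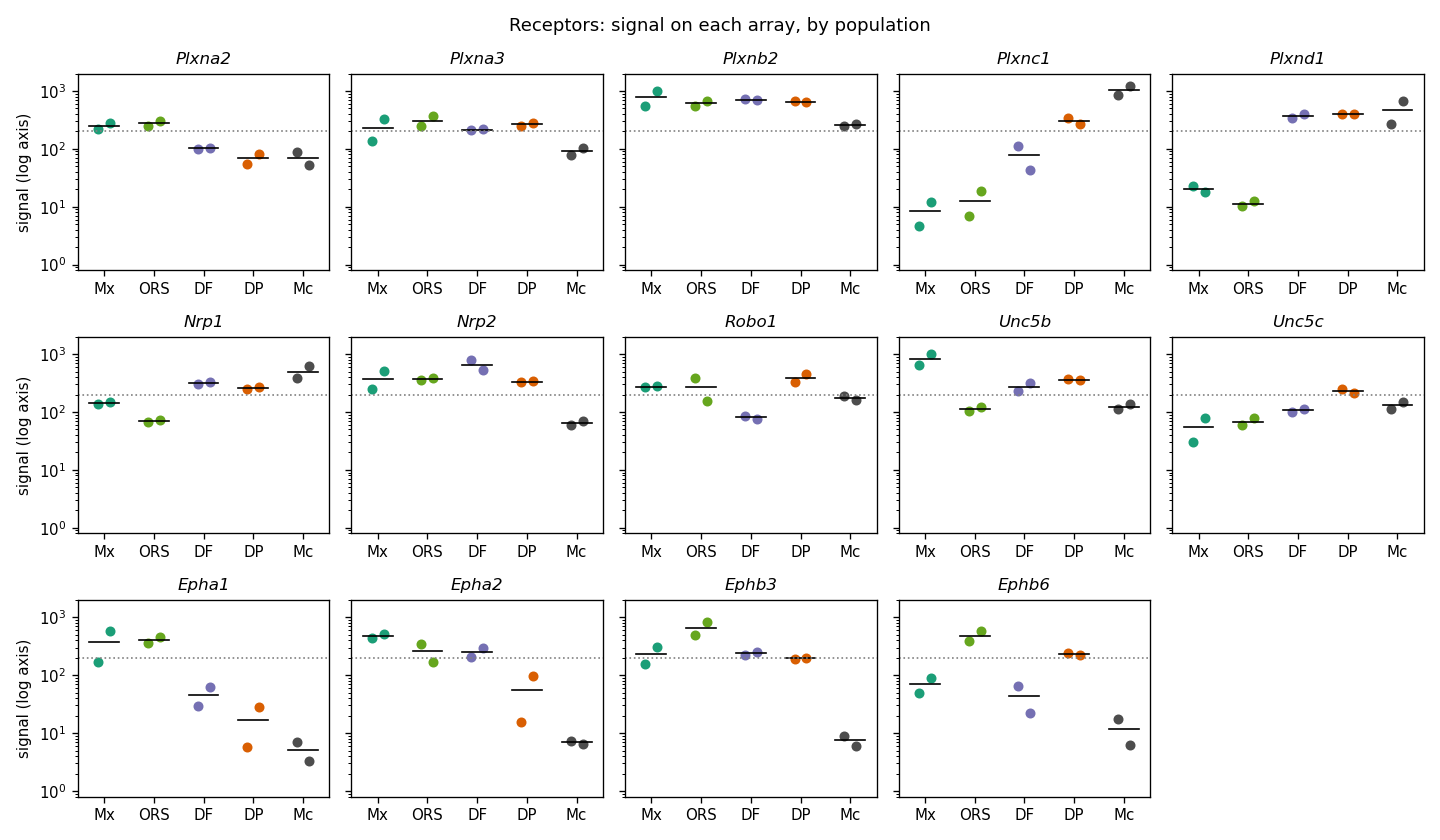
Each panel shows the signal (log axis) of one described receptor by population, with replicate 1 on the left and replicate 2 on the right; the bar is the mean of both and the dotted line the bound of 200. Among the 14 receptors Plxnc1 rises from Mx to Mc over the widest span, Unc5b is highest in Mx and Robo1 is lowest in DF.

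The 2 sides of the follicle's basement membrane were then compared, as the mean of Mx and ORS against the mean of DF and DP. DF entered as the whole gate, with the markers of other cells given above. Higher in the epithelium were 9 of 27 tested members, with a background of 26.3% of the genes tested, and higher in the mesenchyme were 10 of 27, with a background of 34.4%. The epithelial ones were the ligands Efna1, Efnb2, Sema3e and Sema4a and the receptors Epha1, Epha2, Ephb3, Ephb6 and Plxna2. The mesenchymal ones were the ligands Efnb3, Ntn1, Sema3b, Sema6c, Slit2 and Slit3 and the receptors Nrp1, Plxnc1, Plxnd1 and Unc5c. By these means every tested Eph receptor was thus on the epithelial side, and both tested Slits and Ntn1 on the mesenchymal side. Yet Ephb3 in Mx was not set apart from DF (adjusted p = 0.823), and Ephb6 was 2.38-fold higher in DP than in Mx (adjusted p = 0.00139). DF was not set apart from Mx or ORS for Epha2 (adjusted p = 0.0583 and 0.994) or Efnb2 (adjusted p = 0.054 and 0.0952). Nor was DP set apart from ORS for Ntn1 (adjusted p = 0.281) or Slit3 (adjusted p = 0.0936). Among Eph receptors under the bound, Epha3, Epha7 and Ephb4 were higher in the mesenchyme in the fit with no bound (adjusted p = 8.1e-05, 0.0067 and 0.0029). Epha4, Epha5, Epha6 and Epha8 were called in neither direction there. The difference was largest for Slit2, at -3.08 ± 0.15 (SE) on the log2 scale as epithelium minus mesenchyme, followed by Plxnd1 at -2.73 ± 0.20, and on the other side for Epha1 at 2.38 ± 0.27. For Ephb6 it was 0.63 ± 0.18 with an adjusted p of 0.0104, and 0.0534 without DF replicate 2. With no bound on the signal 10 of all 57 members were higher in the epithelium and 24 in the mesenchyme, where 14.7% and 29.8% of all genes were. The median difference over all 57 was -0.17, beside -0.13 over all genes.

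**Figure D4:**
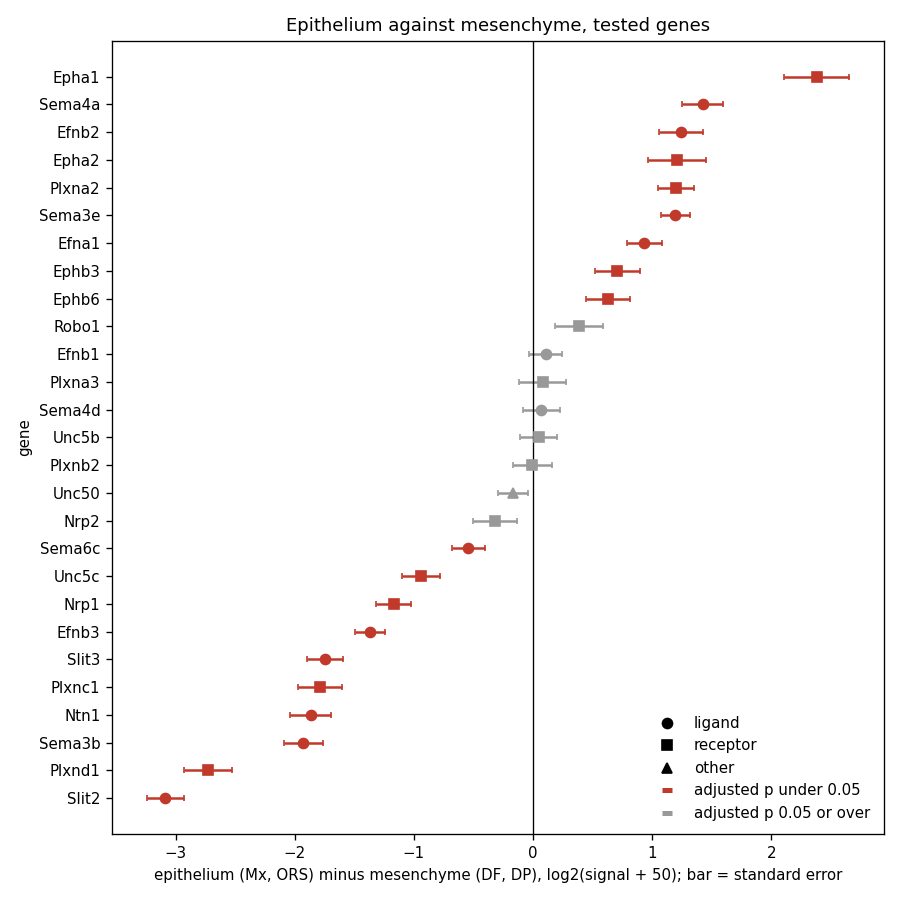
The difference between the epithelial (Mx, ORS) and the mesenchymal (DF, DP) means of log2(signal + 50) is shown with its standard error for the 27 tested members, ligands as circles, receptors as squares and Unc50 as a triangle, red where the adjusted p was under 0.05. Slit2 lies farthest to the mesenchymal side at -3.08 and Epha1 farthest to the epithelial side at 2.38.

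Within the mesenchyme 6 tested members were higher in DP than in DF, namely Efnb1, Efnb3, Ephb6, Plxnc1, Robo1 and Unc5c, where 7.77% of the genes tested were. In the other direction were 4, namely Efnb2, Epha2, Nrp2 and Ntn1, against 11.7%. With no bound on the signal the counts over all 57 were 6 and 8, where 4.47% and 6.32% of all genes were called. Within the epithelium 3 tested members were higher in Mx than in ORS, Nrp1, Sema4d and Unc5b (background 4.25%), and 5 were higher in ORS, Ephb3, Ephb6, Ntn1, Sema3e and Slit3 (background 15.5%). With no bound these counts were 1 and 9 of 57, with 1.86% and 7.15% of all genes called. Within each chip lot that held both populations, every one of these members kept its direction, with differences from 0.59 to 2.64 on the log2 scale.

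Ligand and receptor of a known pair were compared by the population in which each was highest. Of 44 ligand and receptor pairs with both genes on the array 9 shared it, and of the 12 with both genes described 2 did, Sema3b with Nrp1 in Mc and Efna1 with Epha2 in Mx. Nothing is read from these counts, since the highest population was often not set apart from the next. Mc against DF had an adjusted p of 0.182 for Sema3b and 0.0645 for Nrp1, whose second tested probe-set was highest in DF, and Mx against ORS had one of 0.929 for Efna1 and 0.111 for Epha2. Sema3e was highest in ORS, whereas its receptor Plxnd1 was lowest there and above 200 on all DF, DP and Mc arrays. Slit2 and Slit3 were highest in DF, where Robo1 was lowest, and both Slits and Robo1 were above 300 on the DP arrays. DF against DP had an adjusted p of 0.0901 for Slit2 and 0.553 for Slit3. Ntn1 was highest in DF, with Unc5c highest in DP and Unc5b in Mx, where Ntn1 read 26.2 and 36.7. Efnb1 and Efnb3 were highest in DP and Efnb2 in Mx, while their receptor Ephb3 was highest in ORS. Only Efnb3 was set apart from ORS, with DP 3.03-fold higher (adjusted p = 1.28e-05). DP against ORS had an adjusted p of 0.375 for Efnb1, and Mx against ORS had one of 0.939 for Efnb2. In Mc, 11 of all 25 receptors and 15 of all 31 ligands had their lowest mean, a count that was not made over all genes. These are transcript signals, and neither protein nor binding was measured.

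Other parts of the pathway were taken from 2 lists. Of 30 co-receptors and other ligands 23 were on the array and 12 tested, and all 12 passed the F-test, with 8 higher in the mesenchyme and 2 in the epithelium, where 70.2%, 34.4% and 26.3% of all genes tested were. Sdc1, a heparan sulfate proteoglycan of the cell surface, read 1119.7 and 1264 in Mx, 1942 and 2478 in ORS, 513 and 676 in DF, 868 and 844 in DP and 93.5 and 65.7 in Mc, high in the epithelium with ORS on top. Ptk7, a pseudokinase of the cell surface, read 179.5 and 186 in Mx, 209.6 and 265 in ORS, 136 and 107 in DF, 727 and 530.3 in DP and 29.2 and 6.8 in Mc and was in the DP signature. Kdr, a receptor of vascular endothelial growth factor that works with neuropilins, read 60.6 and 46.8 in Mx, 56.6 and 56.7 in ORS, 1007 and 658 in DF, 115 and 102 in DP and 57.8 and 81.5 in Mc and was in the DF signature. Kdr also stands on the list of endothelial markers. Nrcam, an adhesion molecule that joins neuropilin complexes, read 16.1 and 36.3 in Mx, 37.5 and 32.5 in ORS, 296 and 194 in DF, 259.5 and 124 in DP and 451 and 550.0 in Mc, highest in Mc.

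Of 46 intracellular effectors 40 were on the array and 27 tested, of which 20 passed the F-test, 11 being higher in the mesenchyme and 4 in the epithelium, and 9 higher in ORS than in Mx. Over all genes tested these shares were 70.2%, 34.4%, 26.3% and 15.5%, so the F-test share of effectors lay near the background. Enah, an actin regulator that acts below Robo and netrin receptors, had the widest span of both lists. It read 69.7 and 167 in Mx, 1022 and 1482 in ORS, 166 and 292 in DF, 333 and 337 in DP and 2.6 and 3.9 in Mc, with both ORS arrays above 1000 and Mc at the bottom, and its population means spanned 24.1-fold. Tiam1, an activator of Rac that acts below ephrins, read 307 and 646 in Mx, 917 and 988 in ORS, 101 and 149 in DF, 187 and 189 in DP and 96.5 and 77.4 in Mc. Both were in the ORS signature, together with the ORS members Sema3e and Ephb3.

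The 30 members that did not reach the bound were 19 ligands and 11 receptors. Those under 100 on all 10 arrays were 13, namely Efna5, Epha3, Epha5, Epha6, Epha8, Ntn3, Ntn4, Plxna1, Robo3, Sema4f, Sema6a, Sema6b and Slit1. The other 17 were Efna2, Efna3, Efna4, Epha4, Epha7, Ephb4, Plxnb3, Robo4, Sema3a, Sema3c, Sema3f, Sema4b, Sema4g, Sema5a, Sema5b, Sema6d and Sema7a, none above 263. A few are given here that were chosen after their values were seen, with adjusted p values from the fit without a bound. Epha7, an A-class Eph receptor, read 19.3 and 3.4 in Mx, 15.2 and 9.4 in ORS, 5.6 and 9.9 in DF, 74.3 and 101 in DP and 15.5 and 10.5 in Mc, and DP exceeded the lowest population with an adjusted p of 0.00257. All 3 of its probe-sets were highest in DP. Sema3a, the founding repellent of class 3, read 33.2 and 44.0 in Mx, 68.2 and 65.1 in ORS, 183 and 228 in DF, 76.1 and 98.8 in DP and 38.5 and 43.9 in Mc, highest in DF (adjusted p = 1.38e-04 against Mx).

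Sema5b, a membrane-bound semaphorin, read 31.2 and 26.6 in Mx, 21.7 and 23.8 in ORS, 167 and 179 in DF, 70.6 and 71.3 in DP and 31.5 and 25.2 in Mc, again highest in DF (adjusted p = 3.42e-05 against ORS). Ephb4, the receptor of Efnb2 in veins, read 75.5 and 74.5 in Mx, 107 and 116 in ORS, 206 and 146 in DF, 136 and 144 in DP and 15.2 and 12.3 in Mc (adjusted p = 7.92e-05 for DF against Mc). The endothelial markers given above were also highest in DF, and their part in these values was not tested. Sema3f, a ligand of Nrp2, read 50.9 and 78.8 in Mx, 170.2 and 263 in ORS, 173 and 149 in DF, 81.9 and 110.2 in DP and 2.9 and 4.8 in Mc. Its mean was highest in ORS, which was not set apart from DF (adjusted p = 0.314), and Mc was near 0. Epha4 is counted by its brighter probe-set, which stayed at or under 208, whereas a second one read 279.5 and 274 in ORS and 5.2 and 3.9 in Mc, with ORS highest in both.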

How the data were processed

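The analysis covers 10 Affymetrix MOE430A arrays, 2 for each of Mx, ORS, DF, DP and Mc. The authors computed each probe-set's signal, a linear intensity, with MAS 5.0, scaled it for each array and deposited it in 1 table. Signals were used as deposited. The 64 control probe-sets were left out, and of the other 22626 the annotation gave 20380 a single gene, 691 several and 1555 none. All 57 members matched RefSeq by gene ID.

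Where a gene had several probe-sets, the one brightest on average (log2) stood for it. Tests used limma 3.58.1 (R 4.3.3) on log2(signal + 50) with 1 mean for each population, no block, eBayes and Benjamini-Hochberg adjustment over all 8054 probe-sets tested (5 residual and 7.46 prior degrees of freedom, median residual SD 0.21). Between 2 populations of 2 arrays a permutation test cannot reach 0.05, and the spread that each p draws on is shared by all populations. Arrays have no depth, and their number limits the precision. The fit was tested on simulated data. Python 3.11.15 (numpy 2.4.6, pandas 2.3.3, matplotlib 3.10.9) read the table and drew the plots.

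Members described with every value were those in a tested signature, and those with an F-test adjusted p under 0.05 and population means at least 2-fold apart, 24 in all. Members, lists and pairs were chosen with earlier results of these data known. Alternatives were pseudocounts of 16 and 100, no bound or a bound of 100, quantile normalization, replicate, chip lot and fluidics station blocks, an intensity trend, the mean of all probe-sets, and each array left out. The station block was chosen after seeing the data. Replicate numbers were not taken to pair arrays. Of the arrays 6 were from chip lot A and 4 from lot B, and Mx is only in lot A.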

Additional observations from a re-analysis of the deposited data

How the results depend on the processing

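The direction and the call of the highest against the lowest population held for all 24 described members in all 454 values computed under the alternatives. Not every member had a value under every alternative. The 24 were chosen by their F-test and span in these same data, so this result is only a description. Counts of members moved more. With no bound on the signal the F-test called 45, 24 were higher in mesenchyme, 8 in DF over DP, 1 in Mx over ORS and 9 in ORS over Mx. A bound of 100 gave 17 higher in mesenchyme and 9 in ORS over Mx. These settings test more genes. With the mean of all probe-sets of a gene, which brings in dim probe-sets, the F-test called 17, the signatures held 3, and 5 were higher in epithelium, 6 in mesenchyme, 2 in DF over DP and 1 in Mx over ORS. Ntn1 and Sema3e then left their signatures because their mean did not reach the bound. The means of Efna1, Efnb2, Epha1, Plxna3, Sema3b, Sema4d, Sema6c and Unc5c did not reach the bound either. Calls of these genes were thus lost because they were not tested under that setting. Quantile normalization took Efna1, Sema6c and Unc5c out of the F-test calls, with no test value for them there. It also took Efna1 out of the epithelial calls, Sema6c and Unc5c out of the mesenchymal ones and Unc5c out of DP over DF. Leaving out each array in turn gave 24 to 27 for the F-test, 4 to 6 for the signatures, 8 to 11 and 10 to 11 for epithelium and mesenchyme, 4 to 6 for DP over DF, 2 to 4 for DF over DP (2 without DP replicate 1), 1 to 3 for Mx over ORS (1 without Mx replicate 2, ORS replicate 1 or ORS replicate 2) and 4 to 9 for ORS over Mx (9 without Mx replicate 2). With the replicate block the F-test called 26 and the signatures held 5, and no count of calls changed. Paired deviations of equal replicate numbers correlated at -0.05 to 0.34 between populations, so the numbers were not taken as pairs. With the chip lot as a block the F-test called 24, without Sema4d and Sema6c. Unc5b left the Mx signature at a pseudocount of 100, with a smallest fold of 1.99, and Plxnc1 kept its place in all 20 alternatives. The fluidics station block, chosen after seeing the data, took Nrp2 out of the calls for DF over DP (adjusted p = 0.0682). Low signals limit the rest: 13 members stayed under 100 on every array.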
